A study of Mus musculus with 12 samples.

Results

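The genes of MHC class II antigen presentation were examined in macrophages sorted from the lungs of mice with tumors. They were taken as the rows of the deposited gene table whose symbol was H2-Aa, H2-Ab1, H2-Eb1, H2-DMa, H2-DMb1, H2-DMb2, H2-Oa, H2-Ob, Cd74 or Ciita. All 10 were found among the 14648 genes of the table. RNA-Seq was performed on AMs (alveolar macrophages), CD11c+ IMs and CD11c- IMs (interstitial macrophages with and without the integrin CD11c). Cells came from C57BL/6 mice with lung tumors of B16, a melanoma line of this strain. Live cells had been stained for CD64 and MerTK, which mark macrophages, and for Siglec-F and CD11c, which divide them. WT mice and Il9r-/- mice, a germline knockout of the receptor for IL-9, were used, so every group came from a tumor-bearing animal and no tumor-free group was analysed here. Each of the 6 groups had 2 libraries, 12 in all, numbered 1 and 2 within a group. The methods give both sexes and an age range for the mice of the study as a whole, but no source used here gives them for a library or says whether a library was 1 mouse or a pool, so p-values measure only the spread between libraries, which may be technical.

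MHC class II molecules display peptides from ingested proteins to CD4+ T cells. Their α and β chains assemble with the invariant chain, the product of Cd74, which blocks the peptide groove on the way to the endosome. There proteases trim the invariant chain to a short fragment, and H2-DM removes this fragment and lets peptide bind, while H2-DO holds H2-DM back. CIITA, the product of Ciita, is the coactivator that switches these genes on and does not touch DNA itself. Dendritic cells, B cells and activated macrophages are the classical bearers of class II, and AMs of the resting mouse lung are known for low surface class II.

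The targeted gene went against the label. The CPM (counts scaled to library size, with TMM factors) of Il9r was 0.627 and 0.326 in WT AMs against 6.6 and 6.82 in the AM libraries labelled Il9r-/-. In CD11c+ IMs it was 0.158 and 0.495 against 4.34 and 4.19, and in CD11c- IMs 0.75 and 6.47 against 2.59 and 6.09. Il9r reads were therefore higher in the libraries labelled Il9r-/- in AMs and CD11c+ IMs, without overlap, and overlapped in CD11c- IMs. The difference was 3.79 ± 1.01 (log2 fold change ± SE, n = 2 and 2) in AMs and did not pass edgeR's quasi-likelihood test (adjusted p = 0.833). Which part of the gene the allele lacks is not given in the sources used here, so these counts do not check the genotype. The libraries are called by their labels below.

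The libraries held 26988617 to 42020021 counts. Itgax, the gene of CD11c, lay between 302 and 801 CPM in AMs and CD11c+ IMs and between 27.9 and 54.1 CPM in CD11c- IMs. Siglecf lay between 616 and 686 CPM in AMs and between 10.8 and 65.1 CPM in the IMs. Mertk was at least 353 CPM in AMs and spread from 20.6 to 204 CPM in the IMs. The 3 WT libraries numbered 1 had 12.5 to 27.0 CPM of Xist, a female transcript, and the other 9 libraries at most 0.0478 CPM, so the sex of the mice, or its share in a pool, differed between WT libraries numbered 1 and the rest.

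A total of 8 members lie in the class II region of mouse chromosome 17. By the annotation of mm10, the build of the counts, they run from H2-Oa (chr17:34092379-34095234) over H2-DMa (chr17:34122832-34139101), H2-DMb2 (chr17:34145416-34151095), H2-DMb1 (chr17:34153191-34160229), H2-Ob (chr17:34238905-34245908), H2-Ab1 (chr17:34263227-34269418) and H2-Aa (chr17:34282751-34287771) to H2-Eb1 (chr17:34305867-34316674). H2-Aa is on the minus strand and the other 7 are on the plus strand. Ciita lies at chr16:10480072-10527640. Of the 100-base windows of the H2-DMb1 transcripts 11.3% occur unchanged in H2-DMb2, and 10.3% the other way round. By the methods only uniquely mapped reads were counted, so reads that match both paralogs equally would be missing from both. Their levels per length may therefore be too low, by an amount that was not measured. The library kit does not mark strand, and exons of H2-DMa overlap Brd2, those of H2-Oa overlap BC051537 and those of Ciita overlap Dexi on the opposite strand, and reads from such overlaps cannot be told apart.

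Class II genes are known to share a promoter module, in which an X box bound by the RFX complex stands upstream of a Y box bound by NF-Y, and CIITA docks on both. The promoters are shown to let the members be compared in a feature outside the counts. RefSeq windows of 300 bases (GRCm38.p6, 250 before to 50 after a start site) matched 7 members with 8 windows, all but H2-Ab1, Cd74 and Ciita. The Y core GATTGG, read on either strand, was in 7 of these 8 windows and in 16.1% of all 32851 windows. The X core GNAAC alone is common, being in 84.8% of all windows. An X core 15 to 45 bases upstream of a Y core on the same strand was found for 5 members, H2-Aa, H2-Eb1, H2-DMb1, H2-Oa and H2-Ob, and in 1.71% of all windows. Each line holds 61 bases, 5′ to 3′ on the strand of the gene, with X core and Y core in capitals.
H2-Aa (chr17:34287857-34287917, minus strand): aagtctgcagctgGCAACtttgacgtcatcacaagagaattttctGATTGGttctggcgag
H2-Eb1 (chr17:34305762-34305822, plus strand): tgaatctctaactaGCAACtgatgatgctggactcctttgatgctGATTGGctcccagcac
H2-DMb1 (chr17:34153084-34153144, plus strand): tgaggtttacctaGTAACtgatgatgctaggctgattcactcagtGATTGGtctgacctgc
H2-DMb2 (chr17:34145113-34145173, plus strand): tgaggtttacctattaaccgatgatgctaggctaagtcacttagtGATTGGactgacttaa
H2-Oa (chr17:34092290-34092350, plus strand): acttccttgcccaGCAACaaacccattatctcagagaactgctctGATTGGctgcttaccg
H2-Ob (chr17:34238802-34238862, plus strand): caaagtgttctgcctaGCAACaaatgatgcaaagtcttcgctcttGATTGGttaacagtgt

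Between the cores lay 27 bases in H2-Aa, H2-DMb1 and H2-Oa, 26 in H2-Eb1 and 24 in H2-Ob. The H2-DMb1 and H2-DMb2 stretches were identical at 52 of 61 bases. At position 14 of the printed H2-DMb1 stretch, counted from its 5′ end, the substitution G14T removes the X core letters in H2-DMb2. H2-DMa had a Y core at -199 in 1 of its 2 windows and no X core at that spacing. These are matches of letters, and binding was not measured.

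Levels were compared between members per length, as FPKM from the deposited log2 FPKM values. In WT AMs, Cd74 was highest with 2606 ± 384 FPKM (mean ± SD, n = 2 here and below), followed by H2-Ab1 with 894 ± 137, H2-Aa with 533 ± 91.9, H2-DMa with 323 ± 18, H2-DMb1 with 255 ± 12.9 and H2-Eb1 with 187 ± 32 FPKM. Far below came H2-DMb2 with 32.0 ± 5.05, Ciita with 5.24 ± 2.26, H2-Oa with 4.77 ± 0.79 and H2-Ob with 2.02 ± 1.27 FPKM. Each of these neighbours was apart in both libraries except Ciita and H2-Oa, which overlapped. Cd74 itself lies outside the class II region, at chr18:60803849-60812652.

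In the AM libraries labelled Il9r-/- the order was different. Cd74 again led with 719 ± 15.7 FPKM, but H2-DMa came next with 313 ± 9.32, above H2-Ab1 with 233 ± 41.5, and H2-DMb1 with 148 ± 2.85 stood above H2-Aa with 131 ± 14.1 FPKM. The libraries of these neighbours did not overlap. H2-Eb1 had 52.6 ± 15.3 FPKM and H2-DMb2 29.0 ± 2.89 FPKM.

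In all 4 IM groups the order began Cd74, H2-Ab1, H2-Aa, H2-Eb1 and H2-DMb1, with no overlap among the 5. WT CD11c+ IMs had 11391 ± 1889 FPKM of Cd74, 5986 ± 981 of H2-Ab1, 3053 ± 422 of H2-Aa, 2001 ± 234 of H2-Eb1 and 446 ± 4.3 of H2-DMb1. WT CD11c- IMs had 6831 ± 80.7 FPKM of Cd74, 2866 ± 88.6 of H2-Ab1, 1702 ± 129 of H2-Aa, 997 ± 112 of H2-Eb1 and 181 ± 8.38 of H2-DMb1. H2-Ob, H2-Oa and Ciita overlapped each other at the bottom in every IM group. By mean FPKM, Cd74 ranked 3 of 14648 genes in all 4 IM groups, 11 in WT AMs and 76 in the AM libraries labelled Il9r-/-. H2-Ab1 ranked between 5 and 9 in the IM groups, 51 in WT AMs and 332 in the AM libraries labelled Il9r-/-.

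The chains that pair with each other kept nearly the same proportion in every library. The FPKM ratio of H2-Ab1 to H2-Aa, the β and α chains of I-A, stayed between 1.63 and 1.99 over the 12 libraries. The ratio of Cd74 to H2-Ab1 lay between 1.9 and 3.48. The ratio of H2-Eb1, the β chain of I-E, to H2-Ab1 was 0.205 to 0.242 in the AMs and 0.299 to 0.374 in the IMs, without overlap. C57BL/6 mice are known to lack the I-E α chain, whose gene H2-Ea is not analysed here, so the H2-Eb1 transcript has no partner in this strain.

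H2-DM did not follow the chains it serves. The FPKM ratio of H2-DMa to H2-Ab1 was 0.0438 to 0.0601 in the 8 IM libraries, 0.389 and 0.339 in WT AMs, and 1.57 and 1.17 in the AM libraries labelled Il9r-/-. The ratio of H2-DMb1 to H2-DMa, the 2 chains of H2-DM, was 0.793 and 0.787 in WT AMs, 0.468 and 0.475 in the AM libraries labelled Il9r-/-, and above 1 in each IM library. The ratio of H2-Ob to H2-DMb1 ranged from 0.00457 to 0.408, a range of 89.3-fold. A ratio within a library shows unequal proportions and does not say which gene moved.

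**Figure D1:**
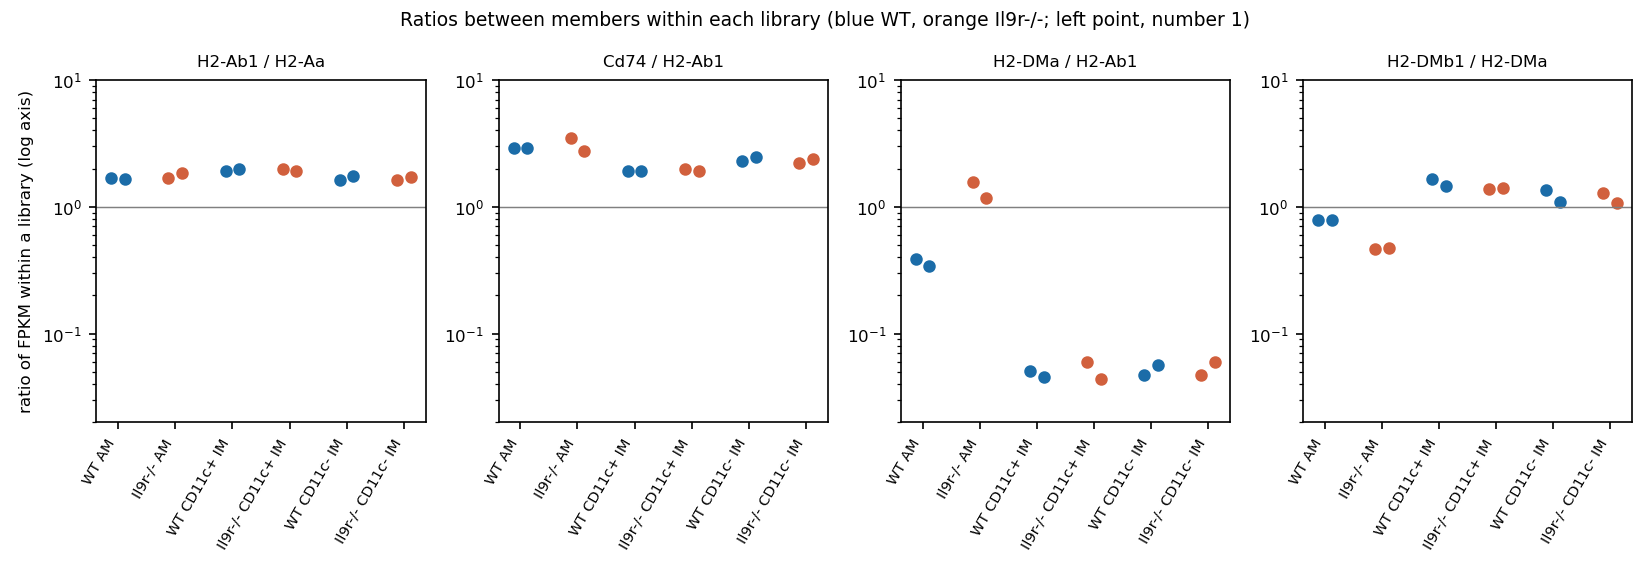
FPKM ratios between members within each of the 12 libraries (log axis), by group, WT in blue and Il9r-/- in orange, with the library numbered 1 on the left. H2-Ab1 to H2-Aa stayed between 1.63 and 1.99, while H2-DMa to H2-Ab1 ran from 0.0438 to 1.57 and was highest in the AM libraries labelled Il9r-/-.

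The populations were compared next, to ask how class II differs among lung macrophages in tumor-bearing mice. In CD11c+ IMs compared with AMs, over both genotypes, 9 of the 10 members were higher and 0 were lower. Among all genes 15.9% were higher and 10.7% lower by the same rule, an adjusted p under 0.05 in edgeR's quasi-likelihood test with Benjamini-Hochberg adjustment over all genes. The median log2 fold change was 2.83 over the members and 0.027 over all genes. Fewer cells of a type and less RNA per cell cannot be told apart in sorted bulk samples.

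Both chains of I-A were higher in CD11c+ IMs. H2-Ab1 was 951 and 1181 CPM in WT AMs, 243 and 313 CPM in the AM libraries labelled Il9r-/-, 6313 and 7969 CPM in WT CD11c+ IMs and 6272 and 9057 CPM in the CD11c+ IM libraries labelled Il9r-/-. H2-Aa was 501 and 639, 129 and 151, 2945 and 3583, and 2848 and 4224 CPM in the same order. Every CD11c+ IM library lay above every AM library for both genes. The log2 fold change was 3.76 ± 0.2 (SE) for H2-Ab1, or 13.6-fold, and 3.59 ± 0.19 for H2-Aa, or 12.0-fold (edgeR adjusted p = 1.2e-05 for each).

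H2-Eb1 showed the largest difference of the members, with 274 and 349 CPM in WT AMs, 69.6 and 106 CPM in the AM libraries labelled Il9r-/-, 3064 and 3617 CPM in WT CD11c+ IMs and 2727 and 4119 CPM in the CD11c+ IM libraries labelled Il9r-/-. It was 4.35 ± 0.23 higher, or 20.5-fold (edgeR adjusted p = 1.2e-05). Cd74 was 3304 and 4072, 1002 and 1034, 14228 and 18008, and 14827 and 20514 CPM in the same order. It was 3.12 ± 0.19 higher, or 8.71-fold (edgeR adjusted p = 2.01e-05), again without overlap.

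Ciita, the regulator, was 21.8 and 41.0 CPM in WT AMs, 7.61 and 9.93 CPM in the AM libraries labelled Il9r-/-, 65.1 and 116 CPM in WT CD11c+ IMs and 48.2 and 124 CPM in the CD11c+ IM libraries labelled Il9r-/-. It was 2.41 ± 0.42 higher in CD11c+ IMs, or 5.32-fold (edgeR adjusted p = 0.00294), with no overlap. Between the WT groups alone, with the spread still taken from all 12 libraries, its difference was 1.53 and did not pass (edgeR adjusted p = 0.122).

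The chains of the peptide editor H2-DM parted from each other. H2-DMb1 was 316 and 339 CPM in WT AMs, 192 and 187 CPM in the AM libraries labelled Il9r-/-, 568 and 576 CPM in WT CD11c+ IMs and 566 and 598 CPM in the CD11c+ IM libraries labelled Il9r-/-, and was 1.21 ± 0.11 higher (2.32-fold, edgeR adjusted p = 0.000104). H2-DMa was 514 and 556, 530.3 and 508, 444 and 509, and 524 and 551 CPM in the same order, and its log2 fold change was -0.06 ± 0.13 (edgeR adjusted p = 0.798). It was the member whose AM and CD11c+ IM libraries overlapped.

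H2-DMb2, the second β chain gene of H2-DM, was 2.38 ± 0.69 higher in CD11c+ IMs (5.22-fold, edgeR adjusted p = 0.0311). The chains of H2-DO were higher too, H2-Oa by 2.53 ± 0.77 (5.77-fold, edgeR adjusted p = 0.0393) and H2-Ob by 3.85 ± 0.88 (14.4-fold, edgeR adjusted p = 0.0114). The calls of H2-DMb2 and H2-Oa were lost when any one of the 4 AM libraries, or the WT or Il9r-/- CD11c+ IM library numbered 2, was left out, with differences of 1.87 to 2.47 for H2-DMb2 and 1.92 to 2.71 for H2-Oa. The call of H2-Ob was lost without the WT AM library numbered 1 (3.58) or the Il9r-/- AM library numbered 1 (3.76).

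Within a genotype 2 libraries were compared with 2, with the spread still taken from all 12 libraries. H2-Aa, H2-Ab1, H2-Eb1, Cd74 and H2-DMb1 were called in each genotype. In WT the differences were 2.52 for H2-Aa, 3.42 for H2-Eb1 and 0.81 for H2-DMb1. In the libraries labelled Il9r-/- they were 4.66 for H2-Aa, 5.29 for H2-Eb1 and 1.62 for H2-DMb1, and Ciita was called as well with 3.3. The difference between these genotype-specific values is tested below.

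**Figure D2:**
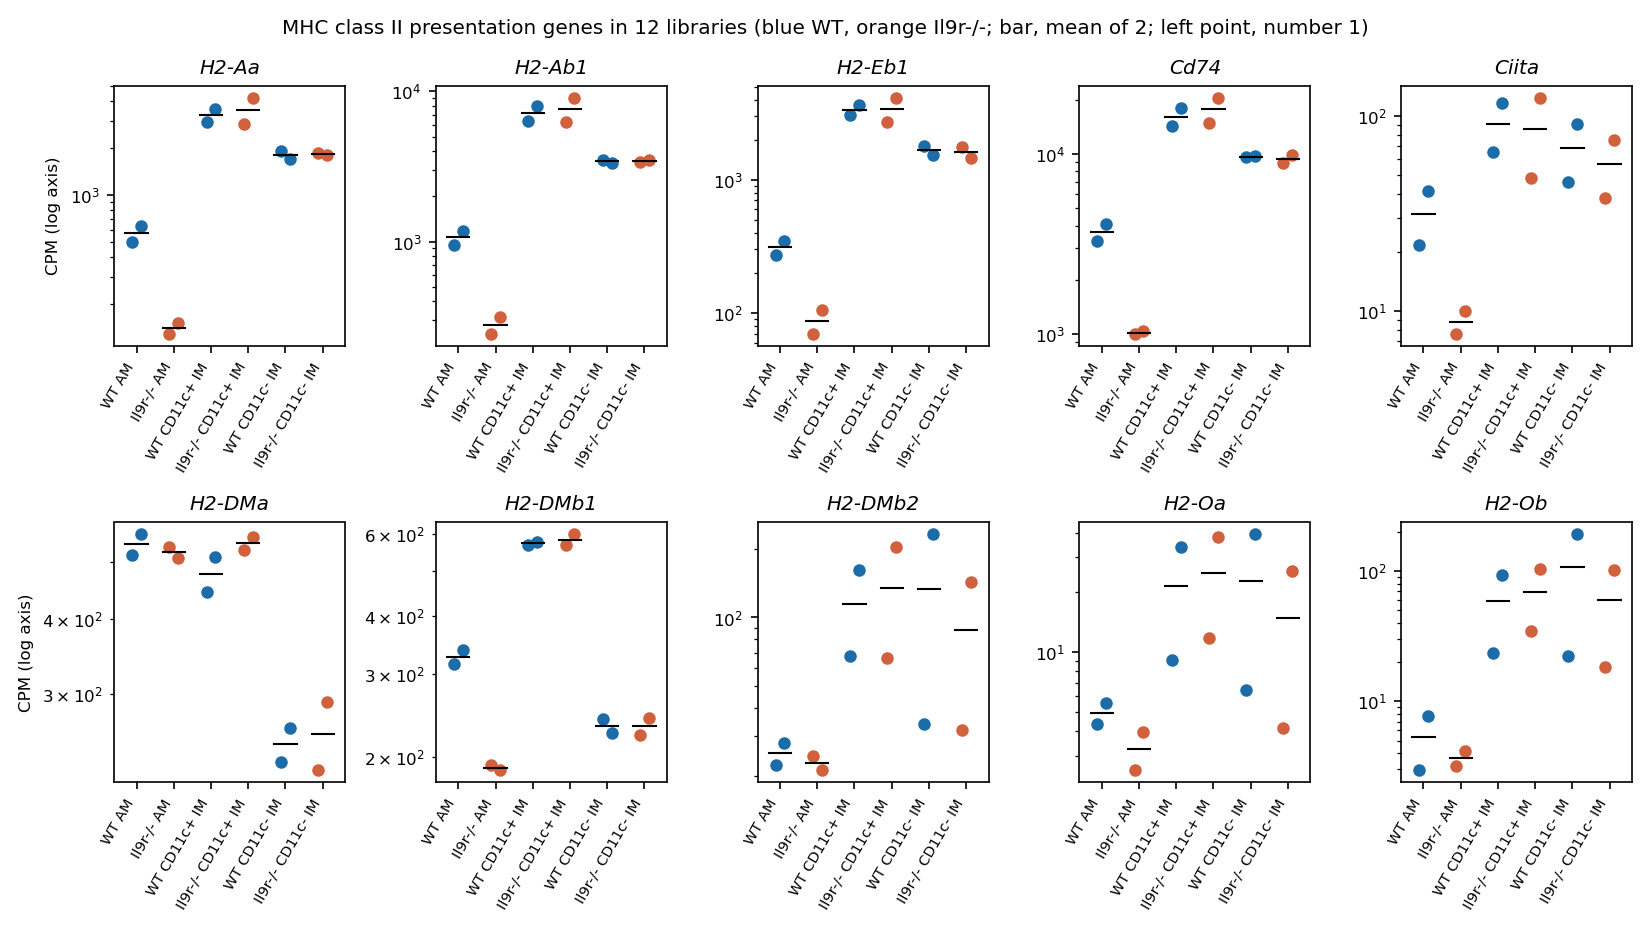
CPM of the 10 members in each of the 12 libraries (log axes, a scale for each gene), by group, WT in blue and Il9r-/- in orange, with the library numbered 1 on the left and a bar at the mean of 2. H2-Aa, H2-Ab1, H2-Eb1 and Cd74 are lowest in the AM libraries labelled Il9r-/- and highest in CD11c+ IMs, while H2-DMa is as high in AMs (508 to 556 CPM) as in CD11c+ IMs (444 to 551 CPM).

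CD11c- IMs compared with AMs gave 8 members higher and 1 lower of 10, where 27.9% of all genes were higher and 17.8% lower. The median log2 fold change was 2.25 over the members and 0.117 over all genes. H2-Aa was 1917 and 1721 CPM in WT CD11c- IMs and 1859 and 1823 CPM in the CD11c- IM libraries labelled Il9r-/-, and H2-Ab1 was 3493 and 3344 CPM against 3379.8 and 3488 CPM. These libraries lay close together and all above the AMs. The log2 fold changes were 2.7 ± 0.19 for H2-Aa (6.48-fold, edgeR adjusted p = 1.77e-05) and 2.65 ± 0.19 for H2-Ab1 (6.29-fold, edgeR adjusted p = 2.29e-05).

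H2-Eb1 was 3.31 ± 0.22 higher in CD11c- IMs than in AMs (9.91-fold, edgeR adjusted p = 1.67e-05), and Cd74 was 2.3 ± 0.19 higher (4.91-fold, edgeR adjusted p = 3.38e-05). Ciita was 45.6 and 91.4 CPM in WT CD11c- IMs and 38.0 and 75.6 CPM in the CD11c- IM libraries labelled Il9r-/-. It was 1.91 ± 0.41 higher (3.76-fold, edgeR adjusted p = 0.00474), although 1 CD11c- IM library lay below the higher WT AM library. In WT alone its difference was 1.13 and did not pass (edgeR adjusted p = 0.171).

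H2-DMa was the member that was lower, with 230.3 and 263 CPM in WT CD11c- IMs and 223 and 290.1 CPM in the CD11c- IM libraries labelled Il9r-/-, all below the AMs. It fell by 1.07 ± 0.13 on the log2 scale, or 2.09-fold (edgeR adjusted p = 0.000274). H2-DMb1 was 240.5 and 225 CPM and 223 and 242 CPM in the same groups, between the WT AMs and the AM libraries labelled Il9r-/-, with a difference of -0.1 ± 0.11 (edgeR adjusted p = 0.477). Between the WT groups alone, by the same fit of all 12 libraries, H2-DMb1 was lower by -0.49 (edgeR adjusted p = 0.0412). Between the groups labelled Il9r-/- the difference was 0.29. In CD11c- IMs the chains that present peptide were thus higher than in AMs while H2-DMa was lower.

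H2-DMb2 was 2.18 ± 0.68 higher (4.53-fold, edgeR adjusted p = 0.0272), H2-Oa 2.2 ± 0.77 higher (4.61-fold, edgeR adjusted p = 0.0412) and H2-Ob 4.18 ± 0.89 higher (18.1-fold, edgeR adjusted p = 0.00462). For H2-Oa the Il9r-/- CD11c- IM library numbered 1 (4.13 CPM) lay below both WT AM libraries (4.36 and 5.54 CPM). The calls of H2-DMb2 and H2-Oa were lost when any one of the 4 AM libraries, or the WT or Il9r-/- CD11c- IM library numbered 2, was left out. Without those libraries numbered 2 the difference of H2-DMb2 was 1.19 or 1.45 and that of H2-Oa 1.29 or 1.28.

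Between the IM populations, 6 members were higher in CD11c+ IMs and 0 were higher in CD11c- IMs, where the shares of all genes were 4.98% and 7.71%. These were both I-A chains, H2-Eb1, Cd74, H2-DMa and H2-DMb1. H2-DMb1 differed by 1.31 ± 0.11 (2.48-fold, edgeR adjusted p = 0.000633) and H2-DMa by 1.01 ± 0.13 (2.01-fold, edgeR adjusted p = 0.00295). H2-Ab1 differed by 1.11 ± 0.19 (2.16-fold, edgeR adjusted p = 0.0075), H2-Eb1 by 1.05 ± 0.21 (edgeR adjusted p = 0.0147), H2-Aa by 0.89 ± 0.18 (1.86-fold, edgeR adjusted p = 0.0145) and Cd74 by 0.83 ± 0.18 (1.77-fold, edgeR adjusted p = 0.0199). In all 6 genes each CD11c+ IM library lay above each CD11c- IM library. The share of all genes separated in this way was not counted.

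Ciita differed by 0.5 ± 0.39 (edgeR adjusted p = 0.456), H2-DMb2 by 0.2 ± 0.65, H2-Oa by 0.32 ± 0.73 and H2-Ob by -0.33 ± 0.77, and the libraries of these 4 genes overlapped. With 2 libraries against 2 the count fell to 1 in WT, H2-DMb1, and to 2 in the libraries labelled Il9r-/-, H2-DMa and H2-DMb1, and it was 1 without the 3 WT libraries numbered 1. The calls over all genes went from 1859 to 111, 320 and 109 in the same settings. The call of Cd74 was also lost without the WT (0.82) or the Il9r-/- (0.79) CD11c- IM library numbered 1 or the WT CD11c+ IM library numbered 2 (0.76).

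**Figure D3:**
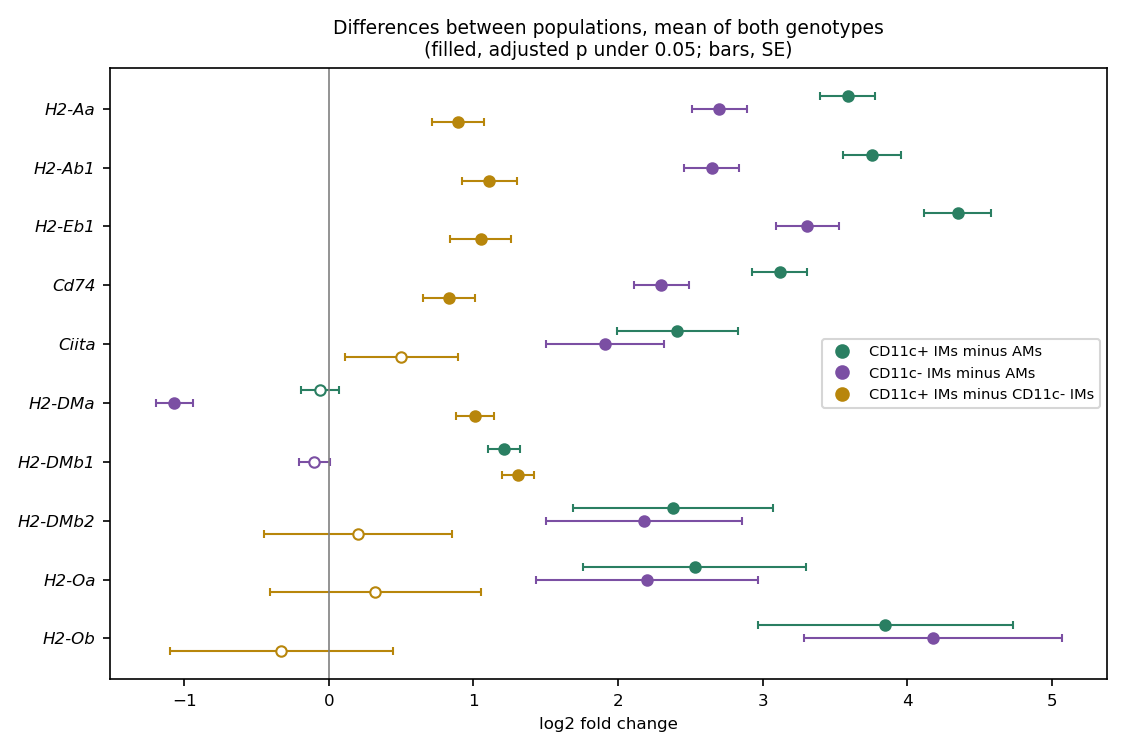
Log2 fold changes of the 10 members between populations (points, mean of both genotypes; bars, SE; filled points, adjusted p under 0.05). H2-Eb1 has the largest difference between CD11c+ IMs and AMs (4.35), and H2-DMa is the one member lower in CD11c- IMs than in AMs (-1.07).

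Markers of other cells also differed between the populations, and not all in the direction of the class II chains. Of 11 dendritic cell markers, CD11c+ IMs had 11 called higher against AMs and 7 against CD11c- IMs. Against AMs, 7 of these markers were higher and 1 lower in CD11c- IMs. The summed level of these markers was 36.5 to 73.5 CPM in AMs, 752 to 3419 CPM in CD11c+ IMs and 217 to 923 CPM in CD11c- IMs. The 7 B cell markers in the table summed to 26.8 to 58.1 CPM in AMs, 112 to 549 CPM in CD11c+ IMs and 203 to 1707 CPM in CD11c- IMs. All 5 melanoma markers differed between the IM populations, summing to 48.0 to 749.8 CPM in CD11c+ IMs and 3247 to 8697 CPM in CD11c- IMs. All 5 monocyte markers and all 5 T cell markers in the table were higher in each IM population than in AMs, summing to 364 to 2158 CPM and 67.7 to 225 CPM in IMs. Against AMs, CD11c- IMs had 5 of 7 alveolar type 2 markers higher. Of 10 AM markers 8 were called higher in CD11c+ IMs against CD11c- IMs. The AM markers summed to 33024 to 44474 CPM in AMs. The sums were 3824 to 16132 CPM in CD11c+ IMs and 1203 to 2925 CPM in CD11c- IMs. Both ends of the CD11c+ IM range, 16132 and 3824 CPM, were libraries labelled Il9r-/-. Of 6 endothelial markers, 4 were higher in CD11c+ IMs against AMs, and 5 were higher and 1 lower in CD11c- IMs. In CD11c+ against CD11c- IMs 5 of 7 alveolar type 2 markers were lower. Of all genes 15.9% were higher in CD11c+ IMs and 27.9% in CD11c- IMs against AMs. In CD11c+ against CD11c- IMs 4.98% of all genes were higher and 7.71% lower. Between the IM populations 0 of the B cell, T cell and monocyte markers were called. Their median log2 fold changes in CD11c+ against CD11c- IMs were -1.26, -0.62 and -1.24. None of the dendritic cell and B cell markers was at 0 in any IM library, and the part of all these markers in the class II differences was not tested.

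The libraries of one IM group differed far more in H2-DO than in the chains. H2-Ob was 23.5 and 93.6 CPM in WT CD11c+ IMs, 34.9 and 103 CPM in the CD11c+ IM libraries labelled Il9r-/-, 22.1 and 191 CPM in WT CD11c- IMs and 18.3 and 102 CPM in the CD11c- IM libraries labelled Il9r-/-, against 2.95 to 7.74 CPM in AMs. The library numbered 2 was the higher one in each IM group, by 2.96 to 8.64-fold. H2-Oa behaved alike, with 9.08 and 33.8, 11.8 and 38.2, 6.45 and 39.2, and 4.13 and 25.7 CPM in the same order, or 3.25 to 6.23-fold.

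H2-DMb2 went the same way, with 67.6 and 162 CPM in WT CD11c+ IMs, 66.0 and 205 CPM in the CD11c+ IM libraries labelled Il9r-/-, 33.8 and 233 CPM in WT CD11c- IMs and 31.9 and 144 CPM in the CD11c- IM libraries labelled Il9r-/-. Ciita was 1.78 to 2.57-fold higher in the libraries numbered 2, while H2-Aa was 0.898 to 1.48 times its level in the libraries numbered 1. H2-DMb1, the near copy of H2-DMb2, differed little between these libraries, from 566 to 598 CPM in CD11c+ IMs and 223 to 242 CPM in CD11c- IMs.

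H2-DO is known from B cells and some dendritic cells, so the markers of both are given beside it. The summed B cell markers were 178 and 549 CPM in WT CD11c+ IMs, 112 and 418 CPM in the CD11c+ IM libraries labelled Il9r-/-, 228 and 1707 CPM in WT CD11c- IMs and 203 and 993 CPM in the CD11c- IM libraries labelled Il9r-/-. They were higher in the library numbered 2 of each IM group, as were the summed dendritic cell, monocyte and T cell markers. The summed IM markers were lower there, with 16840 and 11145 CPM in WT CD11c+ IMs, 13306 and 9020.3 CPM in the CD11c+ IM libraries labelled Il9r-/-, 21194 and 6796 CPM in WT CD11c- IMs and 20489 and 8439 CPM in the CD11c- IM libraries labelled Il9r-/-. Mertk was lower there too, with 151 and 110.2, 204 and 59.8, 76.1 and 30.9, and 100.1 and 20.6 CPM in the same order. So was Fcgr1, the gene of CD64, with 159 and 95.7, 121 and 63.5, 101 and 58.0, and 91.4 and 75.5 CPM. These libraries thus differed in many genes beside H2-DO. The part of these markers in the levels of H2-DMb2, H2-Oa and H2-Ob was not tested.

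**Figure D4:**
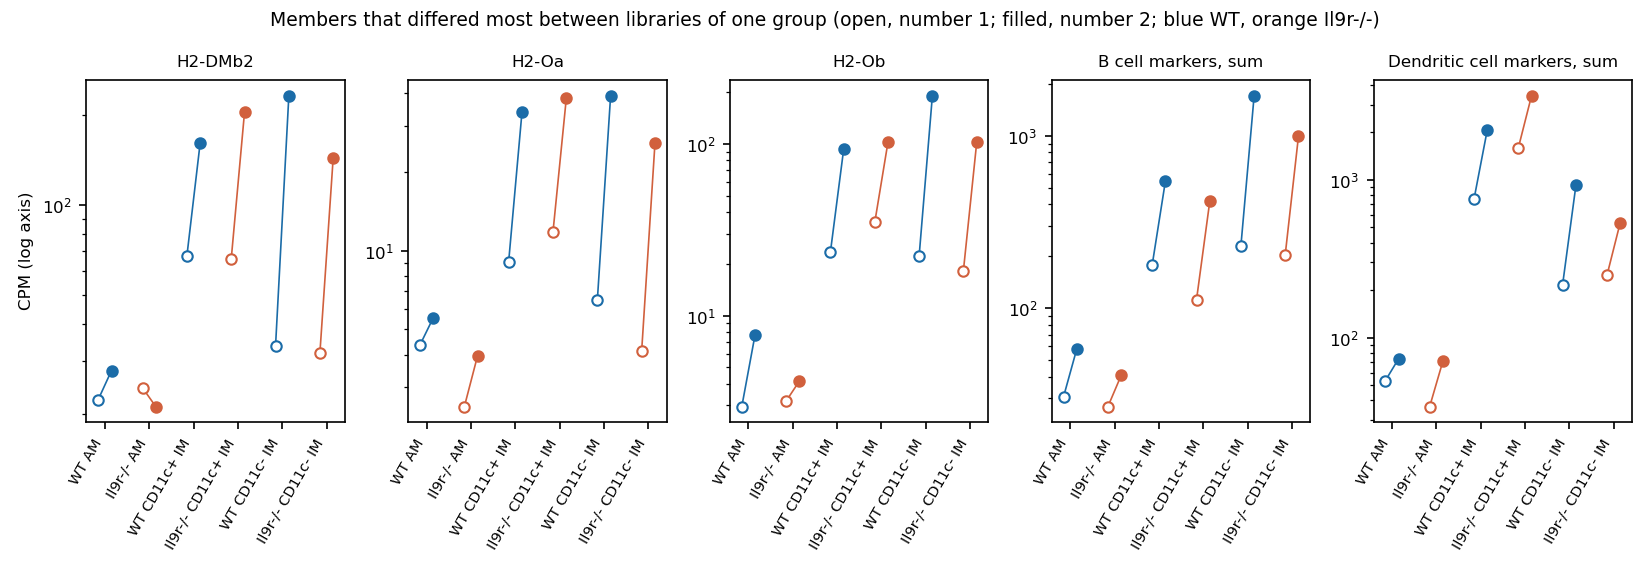
CPM of H2-DMb2, H2-Oa and H2-Ob and the summed CPM of B cell and of dendritic cell markers in each library (log axes; open points, number 1; filled points, number 2; lines join the libraries of a group). In all 4 IM groups every panel is higher in the library numbered 2, by 2.96 to 8.64-fold for H2-Ob.

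The rest of the pathway was read from lists of genes, called by the same edgeR test and given as log2 fold change ± SE. In CD11c+ IMs compared with AMs, 5 of 9 inducers of Ciita were higher and 0 lower, with a median log2 fold change of 0.85. They included the interferon-induced factor Irf1 (2.16 ± 0.3), the macrophage and dendritic cell factor Irf8 (0.85 ± 0.23), the interferon-γ receptor chain Ifngr2 (0.96 ± 0.12) and the kinase of that receptor Jak2 (1.51 ± 0.37). Of 7 promoter partners of CIITA, 1 was higher and 1 lower, the NF-Y subunits Nfyb (0.54 ± 0.14) and Nfyc (-0.38 ± 0.12), a share close to the 26.6% of all genes called in either direction. Leaving out any of 6 single libraries for Nfyb, or of 8 for Nfyc, ended the call. Costimulation had 2 of 4 genes higher, Cd86 (2.96 ± 0.21) and Cd40 (5.04 ± 0.4), which deliver the second signal to T cells or receive help from them.

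Of 9 genes of endosomal processing, made up of proteases, a reductase and a protease inhibitor, CD11c+ IMs had 3 higher and 0 lower against AMs. This share is close to the 26.6% of all genes called in either direction. The 3 were the protease cathepsin B (Ctsb, 1.38 ± 0.34), the cathepsin inhibitor cystatin C (Cst3, 2.1 ± 0.24) and legumain (Lgmn, 1.88 ± 0.39). The call of Ctsb was lost on leaving out any of 5 single libraries. Cd83, whose product protects surface class II from the ligase MARCH1, was 2.79 ± 0.27 higher, 1 of 3 turnover genes. Of the genes for partners of the invariant chain at the cell surface, the ligand Mif was 0.87 ± 0.25 higher and the coreceptor Cd44 fell by 0.99 ± 0.19 on the log2 scale. H2-Eb2, a further class II β chain gene, had 3.79, 5.37, 2.34 and 10.1 CPM in CD11c+ IMs and at most 0.382 CPM in AMs, a difference of 4.77 ± 1.12.

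In CD11c- IMs compared with AMs 45.7% of all genes were called in either direction, and the shares called among the 9 inducers and the 7 promoter partners were close to that. The 9 processing genes split, with 2 higher and 4 lower. Cathepsin D (Ctsd) was lower by -2.13 ± 0.42, cathepsin S (Ctss), the main protease of the invariant chain in many presenting cells, by -1.37 ± 0.29, and cathepsin Z (Ctsz) by -0.76 ± 0.25, while Cst3 was 1.1 ± 0.23 higher. Of the inducers 3 were higher, Irf1 (2.31), Ifngr2 (0.59) and Irf4 (2.3), and 1 was lower, the myeloid factor Spi1 (-0.87). Of the promoter partners, Rfxap (0.6) and Nfyb (0.48) were higher and Nfyc (-0.45) lower. Cd83 (1.87), Cd86 (2.42), Cd40 (4.54), Mif (1.52) and H2-Eb2 (3.38) were higher and Cd44 (-1.45) lower.

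Between the IM populations, 5 of the 9 processing genes were higher in CD11c+ IMs and 0 lower (4.98% and 7.71% of all genes), with a median of 1.0. They included Ctss (1.56 ± 0.29), Ctsd (1.55 ± 0.42), Ctsz (1.13 ± 0.25) and Cst3 (1.0 ± 0.23). Cd83 was 0.92 ± 0.25 higher. By edgeR 0 genes passed among the 7 promoter partners (0 at an unadjusted p under 0.05, 0 by DESeq2), the 9 inducers (4 and 3), the 4 costimulation genes (2 and 1), the 3 partners of the invariant chain (2 and 0) and H2-Eb2 (0 and 0). With a block by genotype and library number, 2 inducers, 1 costimulation gene and 1 partner of the invariant chain passed. The calls of Cd83 and Ctsd were each lost on leaving out any of 10 single libraries, and those of Cst3 and Ctsz any of 4 and 3.

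Genes outside the members were ranked by how closely their log2 CPM followed the mean of H2-Aa, H2-Ab1, H2-Eb1 and Cd74 over the 12 libraries. Of 8842 genes with a mean of at least 10 CPM, the closest were Ramp3 (Pearson r = 0.9807), Vav3 (0.9792), Matk (0.9771), Slamf7 (0.9763), Zmynd15 (0.9756), the costimulation gene Cd40 (0.9709), Tns3 (0.9705) and its partner in that list, Cd86 (0.9698). The 12 libraries fall into 3 populations that differ widely, so many genes share this course. Among the other members r was 0.9306 for Ciita, 0.8197 for H2-Ob, 0.7349 for H2-Oa, 0.7284 for H2-DMb2, 0.6887 for H2-DMb1 and -0.2765 for H2-DMa.

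The last question was whether class II differed with the IL-9 receptor. In AMs the class II chains and Cd74 had 3.55 to 4.07-fold less CPM in the libraries labelled Il9r-/-, but 0 of 10 members passed the test over all genes. By the same fit 6 had an unadjusted p under 0.05 and DESeq2 called 5, where 597 and 65 of all 14648 genes did so. Of all genes 0.0205% passed, 3 of 14648. All 10 log2 fold changes were below 0, with a median of -1.31 over the members and 0.0 over all genes.

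H2-Aa had 501 and 639 CPM in WT AMs and 129 and 151 CPM in the libraries labelled Il9r-/-, a difference of -2.03 ± 0.26 or 4.07-fold lower, which did not pass (edgeR adjusted p = 0.0769). The differences were -1.94 ± 0.27 for H2-Ab1 (3.84-fold, edgeR adjusted p = 0.111), -1.86 ± 0.26 for Cd74 (3.62-fold, edgeR adjusted p = 0.111) and -1.83 ± 0.3 for H2-Eb1 (3.55-fold, edgeR adjusted p = 0.231). Ciita differed by -1.84 ± 0.58 (3.58-fold, edgeR adjusted p = 1.0) and H2-DMb1 by -0.79 ± 0.15 (1.72-fold, edgeR adjusted p = 0.371). In each of these 6 genes, and in H2-Oa, both libraries labelled Il9r-/- lay below both WT libraries. With 2 libraries against 2 such separation alone is weak, and the share of all genes with it was not counted. H2-DMa (-0.04 ± 0.19), H2-DMb2 (-0.14 ± 0.93), H2-Oa (-0.61 ± 1.06) and H2-Ob (-0.54 ± 1.15) differed by less than their SE.

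The call in AMs depended on how the spread was estimated. With the 4 AM libraries alone in the fit, 6 members passed, with edgeR adjusted p of 2.4e-06 for Cd74, 1.21e-05 for H2-Aa, 0.000252 for H2-Ab1, 0.000858 for H2-DMb1, 0.0224 for Ciita and 0.0297 for H2-Eb1. DESeq2 over all 12 libraries called 5, all of these but Ciita, with adjusted p of 6.35e-13 for Cd74 and 9.61e-13 for H2-Aa. No single library left out gave an edgeR call. Without the 3 WT libraries numbered 1, which differ in Xist from the rest, WT AMs were 1 library, assumed to vary like the other groups, and a pass was hardly possible. The differences were -2.19 for H2-Aa, -2.09 for H2-Ab1, -1.99 for H2-Eb1 and -2 for Cd74 (edgeR adjusted p = 1.0 for each).

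The markers of IMs, which carry far more class II, are given beside the AM values. H2-Aa in AMs was 17.5% of its mean CPM in CD11c+ IMs in WT and 3.96% in the libraries labelled Il9r-/-, and Cd74 was 22.9% and 5.76%. Of the 9 IM markers, 7 were a smaller share of their CD11c+ IM level in the libraries labelled Il9r-/-, among them C1qa (0.761% in WT and 0.424%) and Apoe (2.99% and 2.04%). Mgl2 (0.928% and 1.3%) and Pf4 (2.9% and 3.67%) were a larger share there. The summed IM markers were 277 to 327 CPM in WT AMs, 144 to 195 CPM in the AM libraries labelled Il9r-/- and 6796 to 21194 CPM in IMs, and most of the AM sum was Apoe (239 and 133 CPM on average). The dendritic cell markers overlapped as sums, with 53.3 to 73.5 CPM in WT AMs and 36.5 to 71.1 CPM in those labelled Il9r-/-. As a share of their CD11c+ IM level, all but Batf3 (33.0% and 38.0%) were smaller in the libraries labelled Il9r-/-. Among these were Flt3 (2.59% and 0.568%) and Fscn1 (1.56% and 0.48%). The CD11c+ IM level of Flt3 differed too, with 42.0 CPM in WT and 78.8 CPM in the libraries labelled Il9r-/-. Other sums separated the same AM libraries. AM markers summed to 33024 and 35923 CPM in WT AMs against 44474 and 43451 CPM in those labelled Il9r-/-. In the same order melanoma markers had 305 and 117 against 80.0 and 58.4 CPM. T cell markers had 10.4 and 13.7 against 5.63 and 10.2 CPM, and alveolar type 2 markers 195 and 182 against 196 and 197 CPM. Sums of B cell, monocyte and endothelial markers overlapped. Itgax was 778 and 801 against 488 and 608 CPM. The part of these markers in the class II values was not tested.

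In the IMs every member differed between genotypes by less than its SE. The libraries of H2-DMa in CD11c+ IMs did not overlap, with 444 and 509 CPM in WT against 524 and 551 CPM (0.17 ± 0.19). In CD11c+ IMs 0 members passed (0 at an unadjusted p under 0.05, 0 by DESeq2), where 0.00683% of all genes passed, 1 gene, with 569 at an unadjusted p under 0.05 and 95 by DESeq2. The log2 fold changes were 0.12 for H2-Aa, 0.1 for H2-Ab1, 0.04 for H2-Eb1 and 0.13 for Cd74, and all 10 members lay between -0.07 and 0.24. In CD11c- IMs 0 members passed (0 at an unadjusted p under 0.05, 0 by DESeq2), and 0% of all genes, where 249 genes had an unadjusted p under 0.05 and DESeq2 called 9. H2-Aa differed by 0.02, H2-Ab1 by 0.01, H2-Eb1 by -0.05 and Cd74 by -0.05, and all 10 lay between -0.82, for H2-Ob, and 0.06. The SE was wide for H2-Ob (-0.82 ± 1.1), H2-Oa (-0.61 ± 1.03) and H2-DMb2 (-0.6 ± 0.92).

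Averaged over the 3 populations, 0 members passed (5 at an unadjusted p under 0.05, 5 by DESeq2), beside 0.0273% of all genes (825 and 173). The difference between the genotype effects in CD11c+ IMs and AMs was 2.14 ± 0.35 for H2-Aa, 2.04 ± 0.37 for H2-Ab1, 1.99 ± 0.36 for Cd74 (edgeR adjusted p = 0.613 for each) and 1.86 ± 0.41 for H2-Eb1 (edgeR adjusted p = 1.0). Here 0 members passed (5 at an unadjusted p under 0.05, 5 by DESeq2) and 0% of all genes (413 and 18). Against CD11c- IMs the difference was 2.04 for H2-Aa, 1.95 for H2-Ab1, 1.81 for Cd74 and 1.78 for H2-Eb1, again with 0 members (5 and 5) and 0% of all genes (337 and 11). Between the IM populations 0 members passed (0 and 0), and 0% of all genes (226 and 2). These comparisons share libraries, and their values are not independent of each other.

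Of the 36 genes of the pathway lists 0 passed edgeR's test between genotypes in any population, and at an unadjusted p under 0.05 there were 2, both costimulation genes in AMs. DESeq2 called 0 of the 36. In AMs H2-Eb2, Nfyc, Ifngr1, Ctsd, Cd83, Cd86 and Cd44, 1 gene of each list, differed by -0.75 to 0.31 on the log2 scale. All but Ifngr1 were the most abundant of their list. The most abundant inducer in AMs, Spi1, had 644 CPM on average in WT and 709.6 CPM in the libraries labelled Il9r-/-. Over all 36 genes the differences ran from -1.59 ± 0.52 for Cd40, one of those 2 costimulation genes, to 0.31 for Cd83, which are named for being the ends of the range.

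**Figure D5:**
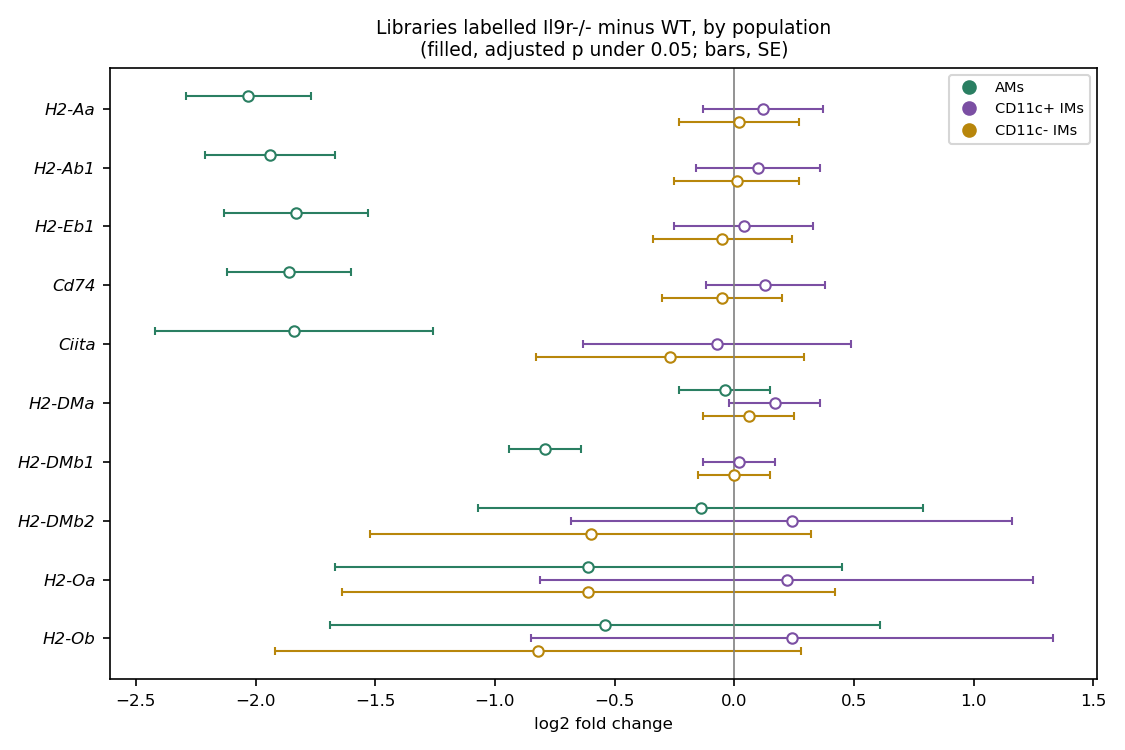
Log2 fold changes of the 10 members in the libraries labelled Il9r-/- compared with WT, in each population (points; bars, SE; no point is filled because none passed an adjusted p under 0.05). In AMs H2-Aa, H2-Ab1, H2-Eb1, Cd74 and Ciita lie between -2.03 and -1.83, while in CD11c+ IMs the 10 members lie between -0.07 and 0.24.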

How the data were processed

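The authors deposited 1 table with read counts per gene and log2 FPKM for 12 libraries, and their own comparisons. The counts were deposited as raw counts and the log2 FPKM values were made by the authors. The comparisons hold fold changes and p-values of the authors and were not used. By the methods and the submitters' processing notes, reads were aligned to mm10 with STAR 2.5 and counted with featureCounts of Subread 1.5.1, with a strand setting although the kit does not mark strand. All 14648 genes, each at 0.5 CPM or more in at least 2 libraries, were fitted with edgeR 4.0.16 (robust quasi-likelihood test, TMM, 6 groups of 2, R 4.3.3). Genes with a Benjamini-Hochberg adjusted p under 0.05 were called, and the SE is the log2 fold change divided by the square root of F. Alternatives used DESeq2 1.42.0, other size factors, a minimum of 5 CPM, blocks, single genotypes and libraries left out. Comparisons within a single genotype kept the fit of all 12 libraries. The scripts were tested on simulated data. Figures were made with Python 3.11.15.

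The text names every member, Il9r, from each pathway list up to 4 called genes, the most abundant first, and the 8 genes most like the chains. Where none of a list was called between genotypes, 1 gene is named, mostly the most abundant. A few lists of markers are given as sums. The members and the lists were chosen with earlier results of these data known. Library numbers were checked as pairs by the correlation of deviations from group means over 10178 genes. Within a genotype all 6 pairs had r of 0.148 to 0.65, and across genotypes 9 pairs had 0.00942 to 0.62. The ranges overlapped, so this check cannot show that the numbers pair libraries within a genotype and not across. The main fit used no pairing, and blocks by number were alternatives. Depth was 26988617 to 42020021 counts per library.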

Additional observations from a re-analysis of the deposited data

How the results depend on the processing

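With 2 libraries per group, small differences could not be told from the spread. Over 1068 alternative values of the members 943 kept direction and side of the threshold, 58 were no longer called, 24 became called and 43 changed sign. The number of members called in CD11c+ IMs against AMs was 5 between the WT groups alone (9 over both genotypes). Values for WT or Il9r-/- alone kept the fit and spread of all 12 libraries. Between the IM populations it was 1 without the 3 WT libraries numbered 1, 1 in WT alone and 2 in Il9r-/- alone. Between genotypes in AMs it was 5 by DESeq2, 6 with only the AM groups in the fit and 4 with a replicate block across genotypes (H2-Aa, H2-Ab1, Cd74 and Ciita), and all genes called were 3, 65, 184 and 9 in the main fit, by DESeq2, with AMs only and with that block. By DESeq2 it was also 5 for the mean of the populations and 5 for each genotype difference against AMs. The cause was not tested. The block by genotype and number, which pairs libraries across populations, left 9, 9 and 6 members called.

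Leaving out single libraries gave 6 to 9 members called for CD11c+ IMs against AMs, 7 to 9 for CD11c- IMs against AMs, 5 to 6 between the IMs and 0 between genotypes, while the calls over all genes ran from 2532 to 4150, 5170 to 6786, 730 to 1856 and, between genotypes in AMs, 0 to 3. Signs turned for small differences. In Il9r-/- alone H2-DMa was 0.05 (CD11c+ IMs against AMs), H2-DMb1 0.29 (CD11c- IMs against AMs) and H2-Ob 0.2 (between IMs), and in WT alone H2-DMb2 was -0.22 and H2-Oa -0.09 (between IMs). Without the 3 WT libraries numbered 1 the genotype differences in CD11c+ IMs were -0.02 for H2-Aa, -0.06 for H2-Ab1, -0.08 for H2-Eb1 and -0.03 for Cd74, and H2-Eb1 in CD11c- IMs was 0.07. With single libraries left out, differences between IMs ran from -0.31 to 1.19 for H2-DMb2, -0.27 to 1.25 for H2-Oa and -0.97 to 0.8 for H2-Ob. Genotype differences in AMs ran from -0.1 to 0.02 for H2-DMa, -0.29 to 0.03 for H2-DMb2 and -1.08 to 0.32 for H2-Ob. In CD11c+ IMs they ran from -0.2 to 0.37 for H2-Aa, -0.19 to 0.34 for H2-Ab1, -0.29 to 0.3 for H2-Eb1 and -0.12 to 0.35 for Cd74, and in CD11c- IMs from -0.06 to 0.1, -0.02 to 0.04, -0.19 to 0.09 and -0.12 to 0.02. Calls of pathway genes that were lost on leaving out 1 library, by up to 8 of the 12 libraries, were those of Ctsb, Irf8, Jak2, Mif, Nfyb, Nfyc and H2-Eb2 (CD11c+ IMs against AMs) and Ctsz, Nfyb, Nfyc and H2-Eb2 (CD11c- IMs against AMs).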
